A study of Mus musculus with 12 samples.

Results

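The genes described here encode the pyruvate dehydrogenase (PDH) complex with the kinases and phosphatases that set its activity, the enzymes of the tricarboxylic acid (TCA) cycle, and the enzymes that make, oxidize or move malate between mitochondria and cytosol. They are 32 genes, chosen by symbol out of the 23923 genes in the files, and all 32 passed the filter on low values. Of the 32 products, 27 are mitochondrial and 5 are cytosolic (Aco1, Idh1, Mdh1, Me1 and Got1). RNA was sequenced from the tibialis anterior, a mostly fast-twitch muscle of the lower hind limb, of 6-week-old mice on a C57BL6/J;129S1/SvImJ background, with 1 library per mouse. The 6 controls were Myf6 cre/+; Smyd1 flox/+ and the 6 Smyd1 conditional knockouts (CKOs) were Myf6 cre/+; Smyd1 flox/-. Mice of both groups thus carried the Cre insertion in Myf6 and a floxed Smyd1 allele, and per the study's methods also the Rosa26 YFP reporter. The study's text gives the tissue as male for this work. Smyd1 encodes a methyltransferase of striated muscle. Myf6 cre acts in differentiated myocytes and myofibers from around birth, so the other cells of the muscle keep the floxed allele. Beside it they carry a wild-type allele in controls and a null allele in CKOs. Where Cre deletes the floxed allele, control fibers keep the wild-type allele and CKO fibers keep no intact one.

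Pyruvate from glycolysis enters the mitochondrion and is oxidized by the PDH complex to acetyl-CoA, which the TCA cycle burns for the respiratory chain. PDH kinases phosphorylate and switch off the complex, and PDH phosphatases switch it on again. Cytosolic and mitochondrial forms of malate dehydrogenase and aspartate aminotransferase together form the malate-aspartate shuttle, which carries reducing equivalents from glycolysis into the mitochondrion, while malic enzymes and the NADP-dependent isocitrate dehydrogenases make NADPH or NADH from malate and isocitrate.

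Levels are in FPKM, a count of sequenced fragments divided by transcript length and library size, as deposited unless stated. Groups were compared with limma on log2(FPKM + 0.1), so that fold changes of low genes are understated, with P-values over 12695 genes and Benjamini-Hochberg adjustment over all of them. With FPKM as deposited the median log2 fold change of all genes tested was 0.18 and 77.9% of genes had a higher mean in the CKO, against a median of 0.0079 and 51.2% of genes after median-ratio scaling, which multiplies each library by 1 factor. Differences are therefore given under both scalings. The size factors ran from 0.855 to 1.15, relative depth ran from 0.984 to 1.77 times that of control 1, and the lowest correlation within a group was 0.943. The targeted gene did not separate the groups: Smyd1 was at 32.9 to 47.1 FPKM in controls and 27.8 to 39.9 FPKM in CKOs as deposited. Its log2 fold change was -0.13 ± 0.12 (SE; limma adjusted P = 0.545), and -0.32 ± 0.083 after scaling (limma unadjusted P = 0.0018, adjusted P = 0.0797). One value covers the whole gene, so RNA outside the deleted part is counted in it, and it does not check the labels. By western blot, the study found no detectable SMYD1 protein in the tibialis anterior of CKO mice. Summed markers of slow fibers stood at 45.0 to 95.8 FPKM in controls and were highest in CKO 6 (395), CKO 1 (210) and CKO 3 (152), with 66.8 to 75.9 in the other CKOs. Control 1 had the highest sums of fibroblast markers (701 FPKM) and macrophage markers (42.2 FPKM). P-values set a difference between groups against the spread between these mice. In whole muscle, fewer cells of a type and less RNA per cell cannot be told apart.

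Most of these genes differed little between the groups. Me1, the cytosolic malic enzyme, was the only one of the 32 to pass the adjusted threshold, and it was lower in the CKO under both scalings. At an unadjusted P below 0.05, 5 members were higher with FPKM as deposited (Idh2, Idh1, Pdk1, Got2 and Aco1) and 1 was lower (Me1). Over all genes tested, 18.1% were higher and 1.76% lower by that rule, so 5 of 32 was near the background. By the adjusted threshold, 2.02% of all genes were higher, with 0 members, and 0.268% were lower, with 1 member. After median-ratio scaling 2 members were higher (Idh2 and Pdk1), where 6.62% of all genes were, and 8 were lower, where 7.44% of all genes were. These 8 were Me1, Pdha1, Suclg1, Dld, Idh3a, Mdh2, Idh3g and Dlst. The adjusted threshold after scaling was passed by 0 members upward (0.764% of all genes) and by 1 downward (0.709%).

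The median log2 fold change of the 32 members was 0.036 as deposited, with 20 positive and 12 negative, below the 0.18 of all genes. After scaling it was -0.15, with 11 positive and 21 negative, and after quantile normalization it was -0.022, with 15 positive and 17 negative. The sign of 9 members differed between deposited and scaled values, so that the direction of the small differences depends on the scaling.

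**Figure D1:**
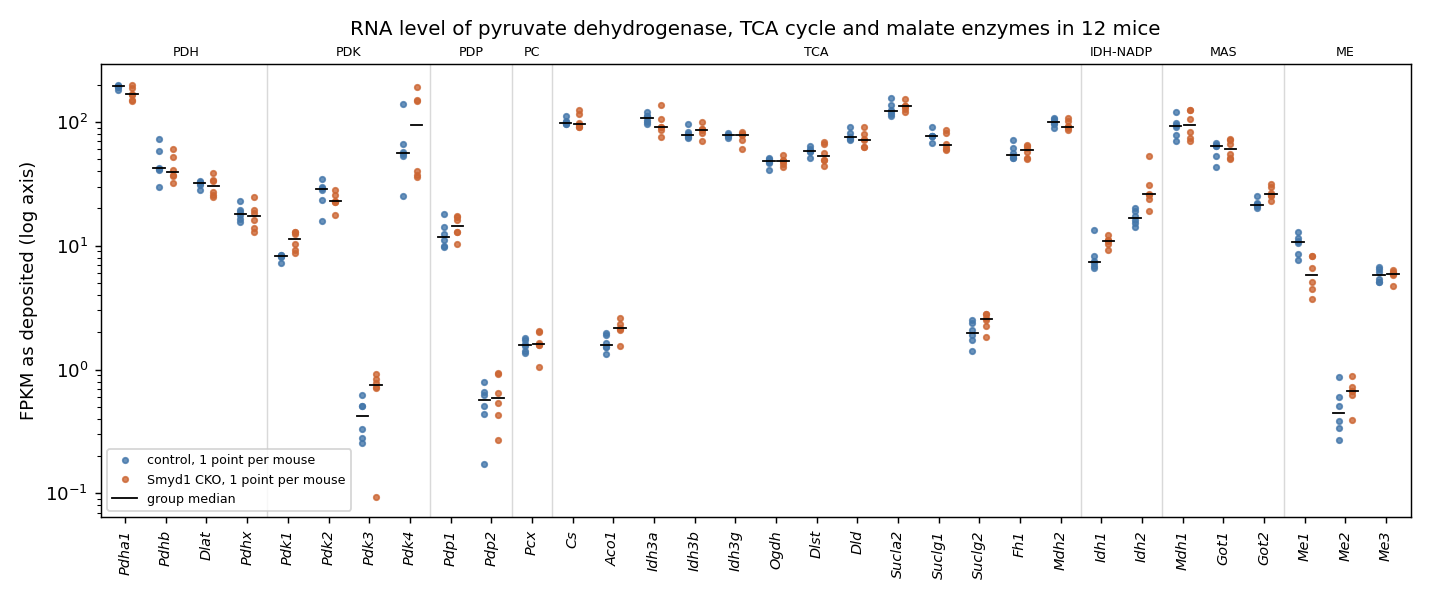
FPKM as deposited (log axis) of the 32 genes, grouped by role (PDH, pyruvate dehydrogenase complex; PDK, its kinases; PDP, its phosphatases; PC, pyruvate carboxylase; TCA, cycle enzymes; IDH-NADP, NADP-dependent isocitrate dehydrogenases; MAS, malate-aspartate shuttle; ME, malic enzymes), with 1 point per mouse and a bar at the group median. Pdha1 has the highest group medians, 194 and 168 FPKM, Pdk3, Pdp2 and Me2 lie below 1 FPKM, and only for Pdk1 do the groups not overlap.

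Me1 oxidizes malate to pyruvate in the cytosol and yields NADPH. Its level ran from 7.70 to 13.0 FPKM in controls, with a median of 10.8, and from 3.73 to 8.31 FPKM in CKOs, with a median of 5.82. The CKO mice were all below the control median, 4 of them were below the lowest control, and CKO 2, CKO 1 and CKO 3 were lowest at 3.73, 4.51 and 5.05 FPKM. The groups overlapped through control 1 alone, at 7.70 FPKM, while the other controls were at 8.53 FPKM or more. The group means were 10.4 ± 1.95 and 6.07 ± 1.95 FPKM (SD, n = 6 each). The log2 fold change was -0.80 ± 0.20 (SE; 95% interval -1.22 to -0.39; limma adjusted P = 0.0455), and -0.99 ± 0.21 after scaling (adjusted P = 0.0285). The adjusted P lay just under the threshold: with 1 mouse left out it ran from 0.0152 to 0.116 as deposited and from 0.00956 to 0.0800 after scaling. Under each scaling, leaving out any of controls 2, 3, 4, 5 and 6 or of CKOs 1, 2, 3 and 6 took it past 0.05. Its unadjusted call was lost in 0 of the 12 fits under each scaling, and the log2 fold change lay between -0.91 and -0.68 as deposited. When CKO 1, 3 and 6 were all left out it was -0.68 (adjusted P = 0.504), and -0.83 after scaling (adjusted P = 0.474).

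Neither mitochondrial malic enzyme passed the unadjusted threshold. Me3, the NADP-dependent mitochondrial form, was at 5.07 to 6.71 FPKM in controls and 4.76 to 6.31 FPKM in CKOs (log2 fold change 0.0014 ± 0.11; -0.18 ± 0.10 after scaling). Me2, the NAD-dependent form, was low at 0.269 to 0.867 FPKM in controls and 0.390 to 0.881 FPKM in CKOs, with a log2 fold change of 0.41 ± 0.24 (limma adjusted P = 0.354). Me1 made up 55.1% to 66.6% of the summed FPKM of the 3 genes in controls, with a median of 61.4%, and 40.2% to 56.7% in CKOs, with a median of 46.1%. The groups overlapped in this share by a single CKO mouse, CKO 4, at 56.7%.

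Because Me1 is also a gene of fat cells, adipocyte markers are given beside it. Of 10 markers 8 were tested, of which Adipoq, Cfd and Retn were higher and Car3 was lower at an unadjusted P below 0.05 as deposited. After scaling 2 were higher and 1 lower. By that rule 18.1% of all genes were higher and 1.76% lower as deposited, and 6.62% and 7.44% after scaling. Plin1 and Lep did not pass the filter, and Adipoq, the adipocyte hormone adiponectin, was at 0.138 to 0.531 FPKM in controls and 0.382 to 1.44 FPKM in CKOs. The summed markers ran from 523 to 721 FPKM in controls and from 247 to 578 FPKM in CKOs, but most of this sum was Car3 and Fabp4, which muscle tissue expresses in myofibers and capillaries. Their part in the difference in Me1 was not tested.

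Both NADP-dependent isocitrate dehydrogenases passed the unadjusted threshold of 0.05 as higher in the CKO. Idh2, the mitochondrial form, ran from 14.2 to 20.4 FPKM in controls, with a median of 16.8, and from 18.9 to 53.0 FPKM in CKOs, with a median of 26.0. CKO 3 stood apart at 53.0 FPKM and CKO 1 came next at 31.1. All CKO mice were above the control median, and 5 of 6 were above the highest control. The log2 fold change was 0.73 ± 0.19 (95% interval 0.32 to 1.14; limma adjusted P = 0.0595), 0.55 ± 0.20 after scaling (adjusted P = 0.208) and 0.63 after quantile normalization. Without CKO 3 it was 0.55 and still passed the unadjusted threshold (limma adjusted P = 0.0696). When CKO 1, 3 and 6, the mice with the highest slow-fiber sums, were left out, it was 0.43, past the unadjusted threshold (adjusted P = 0.484), and 0.28 after scaling, which was not (adjusted P = 0.789).

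Idh1, the cytosolic form, ran from 6.63 to 13.3 FPKM in controls, with a median of 7.33, and from 9.18 to 12.3 FPKM in CKOs, with a median of 10.97. The groups overlapped through control 1 alone, which at 13.3 FPKM was above every CKO, while the other controls reached 8.20. The log2 fold change was 0.42 ± 0.15 (limma adjusted P = 0.144) and 0.23 ± 0.12 after scaling (adjusted P = 0.401). Without control 1 it was 0.56 as deposited (adjusted P = 0.00436). In that fit 1075 of all genes were higher past the adjusted threshold, against 257 with all mice. After scaling, the adjusted P of Idh1 was at least 0.0718 in every fit. Control 1 was also the library with the highest fibroblast and macrophage marker sums, and their part in its Idh1 level was not tested.

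The NAD-dependent isocitrate dehydrogenase works in the TCA cycle on the same substrate. Its catalytic subunit Idh3a had a log2 fold change of -0.15 ± 0.13, and -0.34 ± 0.13 after scaling, past the unadjusted threshold (limma adjusted P = 0.226). Idh2 made up 11.7% to 17.05% of the sum of Idh2 and Idh3a in controls, with a median of 13.7%, and 12.04% to 41.0% in CKOs, with a median of 22.7%.

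**Figure D2:**
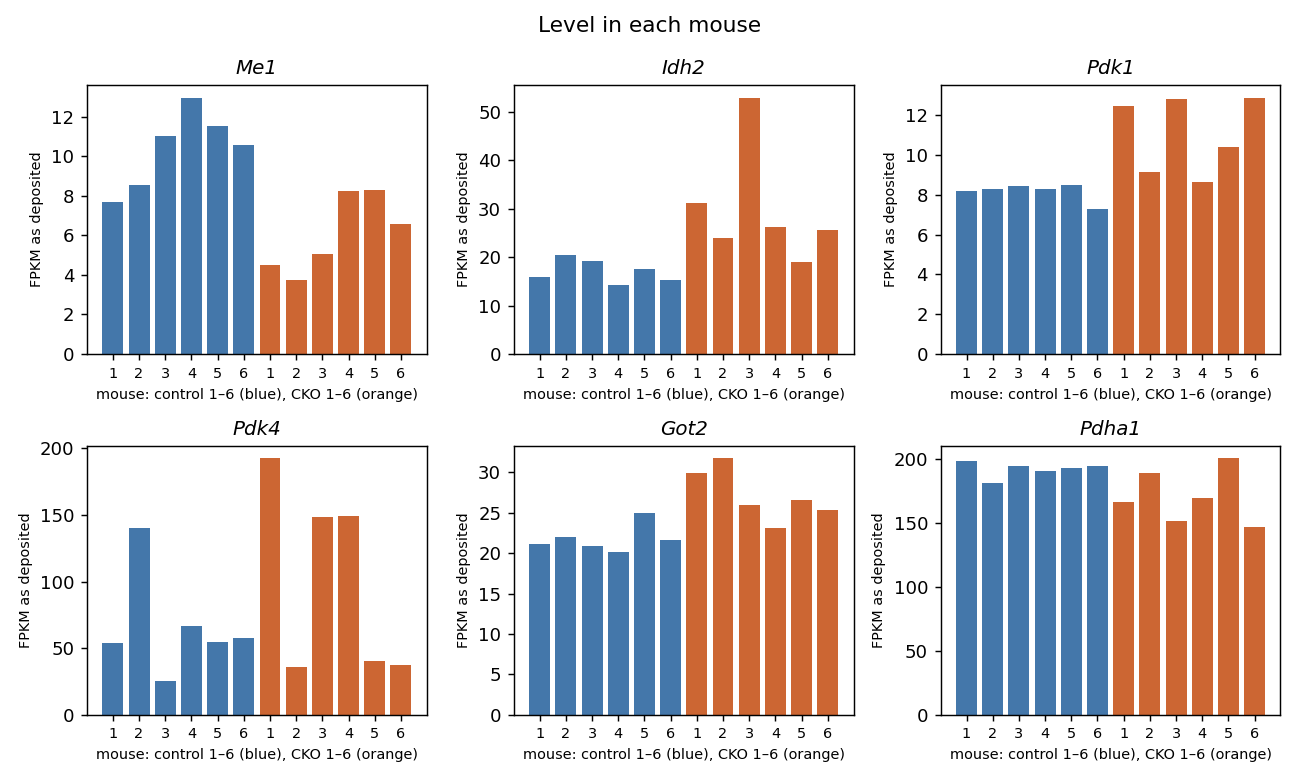
FPKM as deposited of 6 genes in each mouse, with bars from 0. Controls are blue and CKOs orange, numbered 1 to 6 in each group, and a shared number was not taken as a pair. Me1 was lowest in CKO 2 at 3.73 FPKM, Idh2 reached 53.0 FPKM in CKO 3, Pdk1 was highest in CKO 1, 3 and 6 at 12.4 to 12.9 FPKM, and Pdk4 varied widely in both groups.

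The PDH complex itself was high in every library. Pdha1, the catalytic E1 alpha subunit, ran from 181 to 199 FPKM in controls, with a median of 194, and from 146 to 200 FPKM in CKOs, with a median of 168. Of the CKO mice, 4 were below the lowest control, with CKO 6 (146) and CKO 3 (152) lowest, while CKO 5 at 200 FPKM was above every control. Its log2 fold change was -0.18 ± 0.098 (limma adjusted P = 0.319) and -0.37 ± 0.10 after scaling (adjusted P = 0.102), which passed the unadjusted threshold alone. The coefficient of variation was 3.10% in controls and 12.2% in CKOs as deposited, and 7.52% and 14.2% after scaling.

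The other subunits had point estimates of the same sign, and none passed the unadjusted threshold under either scaling. For Pdhb, the E1 beta subunit, the log2 fold change was -0.12 ± 0.20 (-0.31 ± 0.17 after scaling). For Dlat, the acetyltransferase E2, it was -0.064 ± 0.11 (-0.25 ± 0.12), and for Pdhx, which binds E3 to the core, it was -0.093 ± 0.15 (-0.28 ± 0.13). Pdhb varied most, from 29.7 to 72.8 FPKM among controls alone. The summed FPKM of the 4 subunits ran from 257 to 327 in controls and from 221 to 311 in CKOs. After scaling the controls lay close together, at 293 to 321, and the CKOs spread from 205 to 300, with CKO 3 and CKO 6 lowest at 205 each. With CKO 1, 3 and 6 left out, the log2 fold change of Pdha1 was -0.046, and -0.20 after scaling (limma adjusted P = 0.746).

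The 4 PDH kinases differed in level and in how they varied. Pdk1 ran from 7.28 to 8.49 FPKM in controls, with a median of 8.29, and from 8.66 to 12.9 FPKM in CKOs, with a median of 11.4. It was the only member whose groups did not overlap, where 2.23% of all genes tested had every CKO above every control and 0.189% had every CKO below. CKO 6, CKO 3 and CKO 1 were the highest at 12.9, 12.8 and 12.4 FPKM, against 8.66 to 10.4 FPKM in the other 3. The log2 fold change was 0.42 ± 0.11 (limma adjusted P = 0.0693). After scaling it was 0.23 ± 0.11 (adjusted P = 0.347), past the unadjusted threshold, and the groups overlapped, as did those of every other member, where 0.788% of all genes had every CKO above and 0.74% every CKO below. That unadjusted call was lost when any of controls 1, 3, 4 and 6 or CKOs 1, 3 and 6 was left out. CKO 1, 3 and 6 were also the mice with the highest slow-fiber sums. Without the 3 of them the log2 fold change of Pdk1 was 0.20 and 0.051 after scaling, neither past the unadjusted threshold (limma adjusted P = 0.67 and 0.968).

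Pdk4, the kinase induced by fasting and fatty acids, was the most abundant of the 4 and the most variable. It ran from 25.2 to 140 FPKM in controls, with a median of 56.2, and from 35.8 to 192 FPKM in CKOs, with a median of 94.4. CKO 1, 4 and 3 were at 192, 150 and 149 FPKM, and CKO 2, 6 and 5 were at 35.8, 37.2 and 40.2 FPKM, below the control median. In controls, control 2 stood at 140 FPKM, and the next was control 4 at 66.7. The log2 fold change of 0.42 ± 0.47 had a 95% interval of -0.58 to 1.42, so a difference of up to about that size in either direction was not resolved. The coefficient of variation was 58.6% in controls and 70.3% in CKOs as deposited, and 66.3% and 68.7% after scaling.

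Of the other kinases, Pdk2 ran from 15.7 to 34.7 FPKM in controls and from 17.7 to 28.0 FPKM in CKOs, with all 6 CKOs below the control median (log2 fold change -0.17 ± 0.17; -0.36 ± 0.21 after scaling, limma adjusted P = 0.47). Pdk3 was near the lower limit of the data at 0.257 to 0.618 FPKM in controls. In CKOs it was at 0.712 to 0.916 FPKM in 5 mice, all above the highest control, and at 0.0940 in CKO 5, the library with the lowest relative depth. Its log2 fold change was 0.47 ± 0.36 (limma adjusted P = 0.466), and 0.31 ± 0.36 after scaling (adjusted P = 0.775). Without CKO 5 it was 0.84 as deposited (adjusted P = 0.0453). After scaling, the adjusted P of Pdk3 was at least 0.138 in every fit. Pdk4 made up 44.1% to 78.9% of the kinase FPKM in controls and 52.5% to 84.2% in CKOs.

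Neither phosphatase passed the unadjusted threshold under either scaling. Pdp1, the calcium-activated form of muscle, was at 9.76 to 18.1 FPKM in controls and 10.2 to 17.2 FPKM in CKOs (log2 fold change 0.20 ± 0.16; 0.016 ± 0.15 after scaling). Pdp2 was at 0.172 to 0.793 FPKM in controls and 0.269 to 0.936 FPKM in CKOs (0.19 ± 0.31; 0.041 ± 0.30). Pcx, the pyruvate carboxylase that refills the cycle with oxaloacetate, was low at 1.36 to 1.80 FPKM in controls and 1.06 to 2.04 FPKM in CKOs (0.040 ± 0.15; -0.14 ± 0.15).

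**Figure D3:**
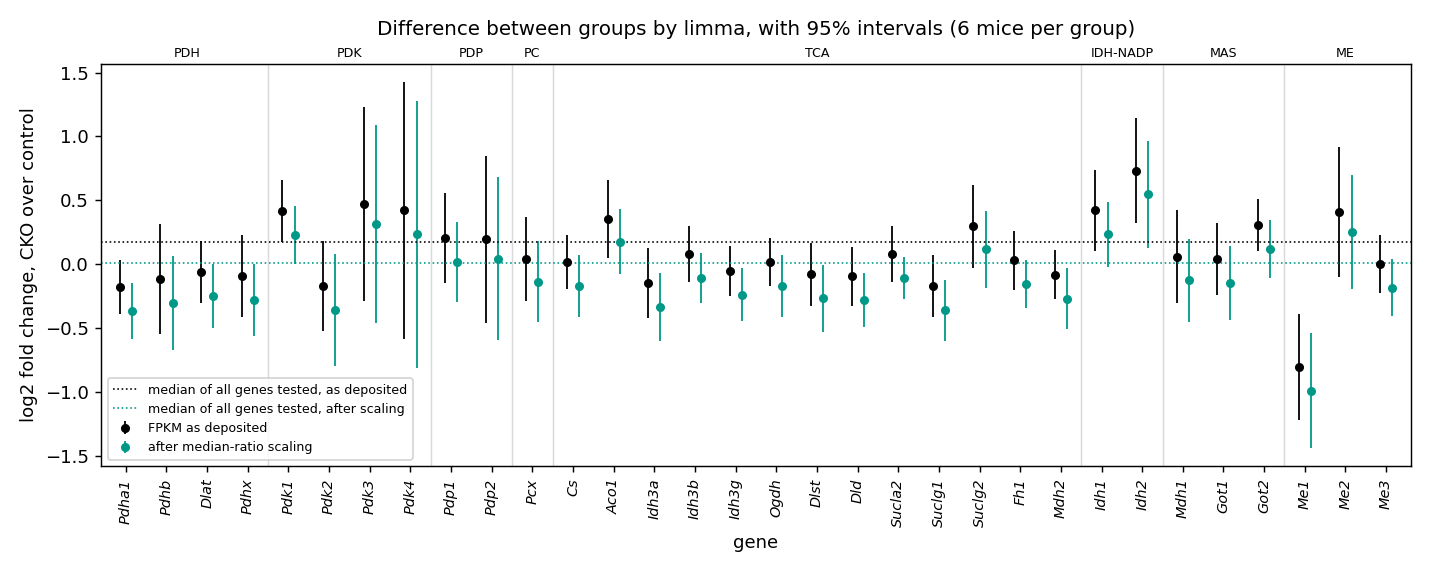
Log2 fold change (CKO over control) of each gene by limma on log2(FPKM + 0.1) with its 95% interval, as deposited (black) and after median-ratio scaling (green). Dotted lines mark the medians of all genes tested, 0.18 and 0.0079. Me1 lies lowest at -0.80 and -0.99, Idh2 highest at 0.73 and 0.55, and of the 13 TCA cycle genes 7 lie above 0 as deposited and 2, Aco1 and Suclg2, after scaling.

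Among the 13 TCA cycle genes (with Aco1 and Dld counted here), 1 was higher and 0 were lower as deposited, and 0 were higher and 6 lower after scaling, at an unadjusted P below 0.05. The shares of all genes were 18.1% higher and 1.76% lower as deposited, and 6.62% and 7.44% after scaling. The median log2 fold change of the 13 was 0.016 as deposited and -0.17 after scaling. None of the 13 passed the adjusted threshold. Cs, the citrate synthase that opens the cycle and is a common measure of mitochondrial content, was at 95.7 to 112 FPKM in controls and 90.8 to 124 FPKM in CKOs, with a log2 fold change of 0.016 ± 0.10 (95% interval -0.20 to 0.23). After scaling it was -0.17 ± 0.11.

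The 6 genes that were lower after scaling had scaled log2 fold changes from -0.36 to -0.24. Suclg1, the shared alpha subunit of both succinyl-CoA ligases, ran after scaling from 74.3 to 89.6 FPKM in controls and from 53.9 to 80.04 FPKM in CKOs, with 4 CKOs below the lowest control (log2 fold change -0.36 ± 0.11; limma adjusted P = 0.143). Dld, the E3 shared by the PDH and 2-oxoglutarate dehydrogenase complexes, ran after scaling from 78.5 to 87.5 FPKM in controls and from 56.9 to 83.4 FPKM in CKOs, with 5 CKOs below the lowest control (-0.28 ± 0.099; adjusted P = 0.199). Idh3a ran after scaling from 105 to 125 FPKM in controls and from 70.5 to 127 FPKM in CKOs. Of its CKO values 5 were below the lowest control and that of CKO 5 was above the highest (-0.34 ± 0.13; adjusted P = 0.226).

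Mdh2, which makes oxaloacetate from malate in the matrix, had a scaled log2 fold change of -0.27 ± 0.11 (limma adjusted P = 0.278). For Idh3g, a regulatory subunit of the NAD-dependent enzyme, it was -0.24 ± 0.098 (adjusted P = 0.281), and for Dlst, the E2 of 2-oxoglutarate dehydrogenase, -0.27 ± 0.12 (adjusted P = 0.344). As deposited these 3 were at -0.082, -0.051 and -0.080, and after quantile normalization at -0.11, -0.10 and -0.14, with none past the unadjusted threshold. With 1 mouse left out, the unadjusted call after scaling was lost in 6 of 12 fits for Mdh2, 5 for Idh3g and 7 for Dlst, and in 0 of 12 for Suclg1, Dld, Idh3a and Pdha1. None of the 6 genes passed the unadjusted threshold with CKO 1, 3 and 6 left out.

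As deposited, the summed FPKM of the 13 TCA cycle genes ran from 866 to 1000 in controls and from 787 to 1012 in CKOs. The medians were 903 and 902. After scaling the sum ran from 897 to 1048 in controls and from 715 to 956 in CKOs. CKO 6 and CKO 3 were lowest at 715 and 751, and CKO 2 and CKO 5 were highest at 956 and 933. The same pair was lowest for the PDH complex and, with CKO 1, highest for slow-fiber markers, for which 8 of 10 genes were higher at an unadjusted P below 0.05 with FPKM as deposited, and 7 were higher and 1 (Myl3) lower after scaling. Over all genes, 18.1% were higher as deposited, and 6.62% higher and 7.44% lower after scaling. Summed markers of oxidative fast fibers were also highest in CKO 1 (4524 FPKM), CKO 6 (4277 FPKM) and CKO 3 (4209 FPKM). They ran from 3002 to 3957 FPKM in the other CKOs and from 2665 to 3143 FPKM in controls. Of those 5 markers 2 (Myh1 and Myh2) were higher as deposited, and after scaling these 2 were higher and 3 (Cox6a2, Mb and Ckmt2) lower. Myh1 made up most of the sum in CKO 1, 6 and 3, at 2630.5, 2565 and 2570 FPKM. Controls had 873 to 1139 FPKM of Myh1. Ckmt2 was at 390, 328 and 280 FPKM in CKO 1, 6 and 3, against 430 to 600 FPKM in controls. Mb was at 1101, 962 and 874 FPKM, against 1075 to 1327 FPKM in controls. Content of slow or oxidative fast fibers was not separated from level per fiber, and its part in these differences was not tested.

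Aco1, the cytosolic aconitase that also acts as iron regulatory protein, was low at 1.32 to 1.99 FPKM in controls, with a median of 1.59, and 1.54 to 2.63 FPKM in CKOs, with a median of 2.15. Of the CKOs 5 were above the highest control, and CKO 4 was at 1.54. Its log2 fold change of 0.35 ± 0.14 (limma adjusted P = 0.187) was 0.18 after scaling (adjusted P = 0.563), and its unadjusted call was lost without control 4 or CKO 1. The remaining cycle genes did not pass under either scaling: Idh3b (log2 fold change 0.079 ± 0.10), Ogdh (0.017 ± 0.087), Sucla2 (0.080 ± 0.10), Suclg2 (0.30 ± 0.15) and Fh1 (0.031 ± 0.11) as deposited.

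Mdh2 of the malate-aspartate shuttle is given above with the TCA cycle, and passed the unadjusted threshold as lower after scaling. Of the other 3 shuttle genes Got2, the mitochondrial aspartate aminotransferase, alone passed it, as higher with FPKM as deposited. It ran from 20.2 to 25.0 FPKM in controls, with a median of 21.4, and from 23.1 to 31.7 FPKM in CKOs, with a median of 26.2. Of the CKOs 5 were above the highest control, and CKO 4 was at 23.1. Its log2 fold change was 0.31 ± 0.096 (limma adjusted P = 0.105), and 0.12 ± 0.11 after scaling, not past the unadjusted threshold (adjusted P = 0.688). Its cytosolic partner Got1 was at 43.6 to 67.0 FPKM in controls and 50.3 to 72.6 FPKM in CKOs (0.041 ± 0.13; -0.15 ± 0.14 after scaling). Mdh1, the cytosolic malate dehydrogenase, was at 69.7 to 120 FPKM in controls and 70.0 to 125 FPKM in CKOs (0.059 ± 0.17; -0.13 ± 0.15).

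A ratio of 2 genes within a mouse does not change when a library is scaled by 1 factor, apart from the added 0.1 FPKM, so cytosolic and mitochondrial forms were compared this way. The tests were two-sided exact permutation tests over all 924 assignments of the mice, whose smallest P is 0.00216, adjusted over the 7 ratios. The ratio of Me1 to Me3 had a geometric mean of 1.75 in controls and 1.003 in CKOs, with all 6 CKOs (0.758 to 1.39) below the lowest control (1.42). The log2 difference was -0.81, with an exact P of 0.00216, the smallest possible, and an adjusted P of 0.0152. With 1 mouse left out it lay between -0.90 and -0.73. With CKO 1, 3 and 6 left out it was -0.62 (exact P = 0.0119).

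The ratio of Me1 to Me2 fell from a geometric mean of 18.4 in controls to 7.94 in CKOs at an unadjusted exact P of 0.0152, which did not pass after adjustment (adjusted P = 0.053). All 6 CKOs were below the control median and 3 were below the lowest control. Without CKO 1, 3 and 6 the log2 difference was -1.004 (exact P = 0.107) against -1.21 with all mice. Me2 is low, so this ratio rests on few fragments.

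None of the other ratios passed the exact test. The ratio of Got1 to Got2 was 2.69 in controls and 2.24 in CKOs (log2 difference -0.27; exact P = 0.0714; adjusted P = 0.167), with all 6 CKOs below the control median. The ratio of Mdh1 to Mdh2 was 0.908 in controls and 1.001 in CKOs (0.14; exact P = 0.437). The ratio of Idh1 to Idh2 was 0.477 and 0.384 (-0.31; exact P = 0.37), with both genes higher in the CKO. The ratio of Sucla2, of the ADP-forming ligase, to Suclg2, of the GDP-forming ligase, was 60.9 and 52.5 (-0.22; exact P = 0.156). Sucla2 made up 97.8% to 98.8% of the pair in all mice. The 4 kinases summed over the 2 phosphatases gave 7.39 and 7.95 (0.10; exact P = 0.827).

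**Figure D4:**
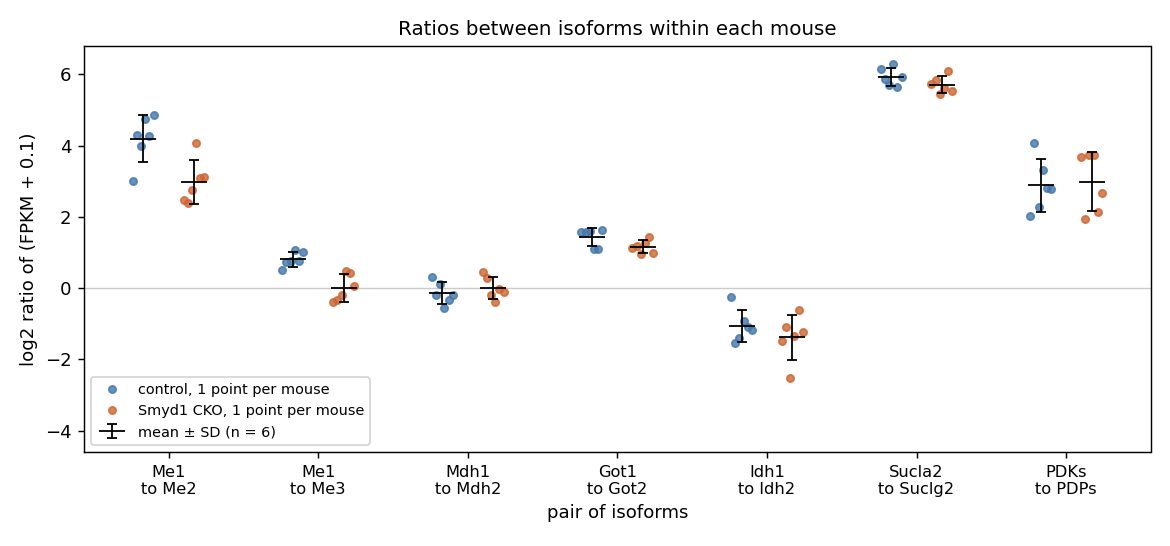
Log2 ratio of (FPKM + 0.1) between isoforms in each mouse (points), with the group mean ± SD (n = 6), for 6 pairs and for the summed PDH kinases (PDKs) over the summed phosphatases (PDPs). For Me1 to Me3 the CKO points lie at -0.40 to 0.48, all below the control points at 0.50 to 1.07, and in the other 6 ratios the groups overlap.

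The neighbouring genes of pyruvate and TCA metabolism showed a like dependence on scaling. Of 36 listed, 35 were tested, of which 8 were higher and 0 lower at an unadjusted P below 0.05 as deposited (median log2 fold change 0.14), and 5 were higher and 6 lower after scaling (median -0.040). Of all genes, 18.1% were higher and 1.76% lower by that rule as deposited, and 6.62% and 7.44% after scaling. The 5 listed genes that were higher under both scalings were Acss1, Acss2, Slc25a10, Slc25a13 and Nnt. Acss1 and Acss2 make acetyl-CoA from acetate in mitochondria and cytosol. Acss1 ran from 1.37 to 1.95 FPKM in controls and from 2.17 to 3.96 FPKM in CKOs, with no overlap (log2 fold change 0.67 ± 0.15; limma adjusted P = 0.0288), and was the 1 gene of the list past the adjusted threshold, which it missed after scaling (0.49; adjusted P = 0.155). As deposited, 2.23% of all genes had every CKO above every control, and 2.02% were higher past the adjusted threshold. Acss2 was at 0.61 ± 0.16 (adjusted P = 0.0639). Nnt, the mitochondrial transhydrogenase that makes NADPH, was at 0.62 ± 0.19 (adjusted P = 0.0952). Slc25a10, the dicarboxylate carrier, and Slc25a13, an aspartate-glutamate carrier, were below 0.4 FPKM in all mice.

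After scaling alone, Mpc2 of the mitochondrial pyruvate carrier (log2 fold change -0.41), the transaminase Gpt2 (-0.59), the succinate dehydrogenase subunit Sdha (-0.26), the muscle aspartate-glutamate carrier Slc25a12 (-0.30) and the lactate exporter Slc16a3 (-0.31) were lower at an unadjusted limma P below 0.05. None of these 5 passed the adjusted threshold.

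Me1 supplies NADPH for fatty acid synthesis. Of 14 genes of cytosolic NADPH and fatty acid synthesis, 4 were higher and 0 lower at an unadjusted P below 0.05 as deposited, and 2 higher and 1 lower (Srebf1) after scaling. Of all genes, 18.1% were higher and 1.76% lower by that rule as deposited, and 6.62% and 7.44% after scaling. Scd1, the stearoyl-CoA desaturase, was higher under both (log2 fold change 0.72 ± 0.23 and 0.54 after scaling; limma adjusted P = 0.107 and 0.239), as was Dgat2, which makes triglyceride (0.71 ± 0.23 and 0.53; adjusted P = 0.122 and 0.354). The NADPH-making enzymes of the pentose phosphate pathway, G6pdx and Pgd, had log2 fold changes of 0.35 ± 0.26 and 0.40 ± 0.24 that did not pass.

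Of 15 regulators and co-regulated genes of Pdk4, 2 were higher and 1 lower at an unadjusted P below 0.05 as deposited, and 1 higher and 2 lower after scaling. The shares of all genes were 18.1% higher and 1.76% lower as deposited, and 6.62% and 7.44% after scaling. Foxo3, a transcription factor of muscle atrophy, was higher under both scalings (0.64 ± 0.18; limma adjusted P = 0.0762; 0.46 after scaling). Nr4a3, a nuclear receptor induced by exercise and handling, was lower under both, from 2.102 to 56.5 FPKM in controls and from 0.444 to 8.23 FPKM in CKOs (-2.34 ± 0.75; adjusted P = 0.113). Neither passed the adjusted threshold. Angptl4, another gene induced by fatty acids, was highest in CKO 1 (1.95 FPKM) and CKO 3 (1.65 FPKM), which were among the mice with the highest Pdk4, but was at 0.566 FPKM in CKO 4 and 0.520 FPKM in control 2, where Pdk4 was also high.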

How the data were processed

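RNA of the tibialis anterior was sequenced for 12 mice. Per the labels and the study's methods, the authors depleted ribosomal RNA (ScriptSeq Complete Gold), aligned reads to mm9 with bowtie2 and TopHat2 2.0.10, discarded multi-mapping reads, and deposited FPKM computed with Cufflinks 2.1.1, so values of close paralogs are uncertain. The annotation is not given in the sources used here. The authors tested counts with DESeq, and those counts were not analysed here. The depth in reads is unknown, and relative depth was read from the steps between FPKM below 0.15. Each file had 23950 rows, of which 27 held a date in the symbol column and were dropped.

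Genes that reached 0.1 FPKM in 6 or more libraries were compared with limma 3.58.1 (R 4.3.3, intensity trend, no block) on log2(FPKM + 0.1), and the code was tested on simulated data. The median-ratio fits used the same model after division by each library's size factor. The members and lists were chosen with earlier results of these data known. Every member was described. Members with an unadjusted P below 0.05 under either scaling and both genes of each ratio were given in full. From other lists, genes with an unadjusted P below 0.05 under both scalings were named, at most 6 a list. Genes named beyond this (Mpc2, Gpt2, Sdha, Slc25a12, Slc16a3, Srebf1, G6pdx, Pgd and Angptl4) were chosen after their values were seen. One gene of the neighbouring list is not reported here by name and stays in the fits and counts.

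Alternatives were median-ratio scaling, quantile normalization, pseudocounts, filters, the replicate number as a block, no trend, sample weights and each mouse left out. Leaving out CKO 1, 3 and 6 together was added after the data were seen. Sequences and positions were not used here.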

Additional observations from a re-analysis of the deposited data

Results flagged for a closer look

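Samples far from the rest of their group were looked for in the FPKM of each member and in the ratios, in 78 groups of 6 mice by Dixon's ratio at the 95% level. There were 7 such values, where about 3.9 are expected by chance at 1 in 20. In controls they were Cs at 112 FPKM in control 6 (next highest 102), Idh1 at 13.3 FPKM in control 1 (next 8.20), Pdk1 at 7.28 FPKM in control 6 (next lowest 8.17) and Pdk4 at 140 FPKM in control 2 (next 66.7). In CKOs they were Idh2 at 53.0 FPKM in CKO 3 (next 31.1), Pdk3 at 0.0940 FPKM in CKO 5 (next lowest 0.712) and Me3 at 4.76 FPKM in CKO 2 (next lowest 5.83). Control 6 gave 2 of the 7 values, and the other 5 came from 5 different mice. Leaving out control 1 brought Idh1, and leaving out CKO 5 brought Pdk3, past the adjusted threshold with FPKM as deposited but not after scaling, as given above. The causes of these values were not tested.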

How the results depend on the processing

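Me1 stayed lower at an unadjusted P below 0.05 in every fit, with log2 fold changes from -1.12 to -0.68 (adjusted P 0.00484 to 0.504). Counts below are at an unadjusted P below 0.05, with adjusted counts named. After median-ratio scaling, 2 members were higher and 8 lower, with all-gene counts of 841 and 944 (adjusted 97 and 90). After quantile normalization it was 3 and 2, with all-gene counts of 810 and 837 (adjusted 101 and 68). With sample weights, 2 members were lower, 3 were higher after adjustment, and all-gene counts were 3704 higher (adjusted 1400) and 115 lower after adjustment. A filter at 1 FPKM gave 1 member higher after adjustment. No filter gave 0 members lower and 170 genes higher after adjustment, and limma without the trend gave 0 members lower after adjustment.

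Without CKO 1, 3 and 6, 3 members were higher, 0 were lower after adjustment, and all genes gave 855 higher (adjusted 4) and 3 lower after adjustment. With scaling as well, 0 members were higher, 1 was lower (adjusted 0), and all genes gave 387 higher and 468 lower (adjusted 4 and 4). The log2 difference of Me1 to Me2 was then -1.004 (exact P = 0.107), of Idh1 to Idh2 0.052 and of kinases to phosphatases -0.27, the last 2 with the sign turned. These fits also hold fewer mice.

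With 1 mouse left out, 4 to 7 members were higher (adjusted 0 to 3) and 1 to 4 lower (adjusted 0 to 1), and all genes gave 1724 to 3416 higher (adjusted 88 to 1075) and 193 to 320 lower (adjusted 18 to 69). After scaling, 1 to 3 members were higher (adjusted 0 in each) and 5 to 12 lower (adjusted 0 to 4), and all genes gave 650 to 1094 higher (adjusted 46 to 180) and 774 to 1142 lower (adjusted 34 to 200). Members beside Me1 that passed the adjusted threshold in such a fit were Idh1 without control 1, Idh2 without control 1 (adjusted P = 0.0418) or CKO 5 (0.0225), Pdk1 without control 1 (0.0423), CKO 2 (0.0480) or CKO 4 (0.0404), and Pdk3 without CKO 5, and after scaling Idh3a (0.0280), Suclg1 (0.0444) and Pdha1 (0.0417) without CKO 5, all in the direction given above. The log2 difference ran from -0.33 to -0.22 for Got1 to Got2, past the exact threshold without control 4, control 5 or CKO 5, and from -0.067 to 0.34 for kinases to phosphatases, turning negative (-0.067, -0.017, -0.034, -0.047 and -0.046) without control 1, control 3, CKO 1, CKO 3 or CKO 4.

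The replicate numbers were not taken as pairs, and whether they mark pairs was not resolved. Deviations of same-numbered mice correlated at -0.086 to 0.17, with a mean of 0.041 against -0.0089 for other pairs across the groups. Of 12 mice, 5 correlated best with their own number. With the replicate block, 1 member was higher after adjustment (Idh2), and Me1 was lower at a limma adjusted P of 0.00792. With the replicate block and median-ratio scaling, 1 member was higher and 9 lower, and all genes gave 855 and 947 (adjusted 91 and 83). Except where stated, the cause of these changes was not tested. Counts of reads behind each FPKM are unknown, which limits Pdk3, Pdp2 and Me2 most.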
